A study of Mus musculus with 16 samples.

Results

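Autophagy is the route by which a cell wraps cytoplasm, aggregates or damaged organelles in a double membrane and delivers them to the lysosome. The ULK1 or ULK2 kinase complex starts the process, a class III PI3-kinase complex marks the forming membrane with the lipid PI3P, and a pair of ubiquitin-like conjugation reactions attaches proteins of the ATG8 family (the LC3 and GABARAP proteins) to it, where they bind the receptors that carry the cargo. In microglia, the resident macrophages of the brain, part of the same machinery also attaches LC3 to phagosomes that hold engulfed material such as amyloid. The 37 genes described here encode that machinery and were taken by gene symbol from a written list. All 37 of the 37 listed symbols were in the table of 20267 genes, and all 37 had at least 1 read per 1000000 assigned reads (CPM) in at least 4 of the 16 libraries. They are therefore 37 of the 13912 genes tested.

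The libraries were RNA-seq of 10000 sorted CD11b+/P2ry12+ cells from each of 16 mice aged about 11 months, 4 mice in each of 4 groups, and the question for these genes was whether amyloid pathology or loss of microglial p38α (the kinase encoded by Mapk14) altered their level. The paper states that more mice per group were sorted and that those with the best RNA integrity scores were sequenced. AD p38KO mice carried the APPswe/PS1dE9 transgenes and the Cx3cr1-creERT2 allele on 1 chromosome; AD p38+/+ mice carried the transgenes without the Cre allele. WT p38KO mice carried the Cre allele without the transgenes, and WT p38+/+ mice carried neither. All 4 groups were homozygous for a Mapk14 allele with loxP sites around exon 1, were on a C57BL/6J background, and were fed 400 ppm tamoxifen for 4 weeks starting at 5 months of age. The Cre allele sits in Cx3cr1, so loss of p38α and loss of 1 Cx3cr1 copy cannot be told apart, and a sort on P2ry12 can miss microglia with little of that receptor. In bulk libraries of this kind, fewer cells of one state and less RNA in each cell also cannot be told apart.

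The sorted cells carried the defining markers of microglia, with 12 of 12 markers above the floor of 3 reads in each group and a summed level of 64771 to 80060 CPM in the 16 libraries, while 8 neuronal markers summed to 3.03 to 9.92 CPM. Markers of other cells were present at higher sums: 162 to 285 CPM for 7 astrocyte markers, 182 to 272 CPM for the 7 oligodendrocyte markers found, 22.4 to 135 CPM for 7 markers of border-associated macrophages, and 0 to 412 CPM for 4 red blood cell markers, highest in an AD p38KO library. The astrocyte sum was mostly Slc1a3 (132 to 266 CPM), and every other astrocyte marker was at most 19.1 CPM. The oligodendrocyte sum was mostly Cnp (96.4 to 125 CPM) and Mbp (57.8 to 121 CPM). The other oligodendrocyte markers were at most 32.6 CPM, with Mog at 0 to 0.422 CPM. The 11 dissociation and immediate early genes summed to 720 to 787 CPM in AD p38KO mice, against 849 to 1207 CPM in AD p38+/+ mice, which did not overlap, and their part in any difference between these groups was not tested. Depth was estimated at 12.3 to 16.4 reads for each CPM. The transcript that encodes p38α isoform 1 had 0.0574 to 0.248 CPM in AD p38KO mice against 58.5 to 71.0 CPM in AD p38+/+ mice, and 0.0589 to 0.214 CPM in WT p38KO mice against 47.1 to 82.6 CPM in WT p38+/+ mice. The gene total of Mapk14 fell far less. Among AD mice it spanned 142 to 166 CPM with p38KO and 152 to 173 CPM with p38+/+. Among WT mice the spans were 138 to 169 and 162 to 210 CPM in that order. Both pairs overlapped, and limma put the shifts at -0.11 (AD) and -0.18 (WT) on the log2 scale, neither called. Most Mapk14 CPM of p38KO mice was thus assigned to other transcripts. Of 14 markers of disease-associated microglia tested, 9 were called higher in AD p38+/+ than in WT p38+/+ mice and 7 were called higher in AD p38KO than in WT p38KO mice (limma, Benjamini-Hochberg adjusted p under 0.05). Fewer genes had a value above 0 in the AD p38KO libraries (15483 to 16847) than in the other 12 (16985 to 18052), and mice 1 and 4 of the AD p38KO group stood apart on the first 2 principal components.

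The sequences shown first are the stretches of promoter that hold the letters CACGTG, the E-box at the core of the CLEAR element through which TFEB and TFE3, transcription factors of lysosome and autophagy genes, bind DNA. Promoter windows of 250 bases before to 50 bases after a RefSeq start site (build GRCm38.p6) were available for 30 members in 36 windows. A start site can lie inside the annotated gene. That is so for the E-box stretches of Atg7 (+ strand, gene from 114643097), Atg14 (- strand, gene to 47570649) and Rubcn (- strand, gene to 32877766). The E-boxes of Atg5 and Atg3 lie before the first base of the gene. In all, 5 members held the E-box, and each stretch is printed 5′ to 3′ on the strand of its gene with the E-box in capitals. They lie at chr6:114670942-114670991 (+ strand, Atg7, an E1-like enzyme of the conjugation system), chr10:44268303-44268352 (+ strand, Atg5, the partner of ATG12), chr14:47568408-47568457 (- strand, Atg14, the subunit that directs the PI3-kinase complex to autophagy), chr16:32868427-32868476 (- strand, Rubcn, a regulator of that complex) and, for Atg3, the E2-like enzyme that attaches LC3 to lipid, at chr16:45158713-45158762 and chr16:45158736-45158785 (both + strand, overlapping).
Atg7: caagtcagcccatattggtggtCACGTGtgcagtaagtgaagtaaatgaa
Atg5: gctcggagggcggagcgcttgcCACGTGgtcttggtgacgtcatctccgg
Atg14: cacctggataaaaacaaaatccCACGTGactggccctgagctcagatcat
Rubcn: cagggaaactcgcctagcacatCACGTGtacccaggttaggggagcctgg
Atg3, first site: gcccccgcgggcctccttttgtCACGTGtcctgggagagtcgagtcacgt
Atg3, second site: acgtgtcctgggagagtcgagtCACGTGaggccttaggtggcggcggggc

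The E-box was in 5 of the 36 member windows (13.9%), against 7.15% of all 32851 promoter windows, searched on both strands. The longer form TCACGTGA, which contains the E-box, was in 1 member window (2.78%, the second Atg3 site) and in 0.974% of all windows. The antioxidant response element core TGACNNNGC, which NRF2 binds, was in 7 member windows (19.4%) of 5 genes (Atg13, Map1lc3b, Tax1bp1, Ulk2 and Vmp1) and in 12.4% of all windows. The forkhead site GTAAACA was in 0 member windows and in 3.65% of all windows. These matches are a description of the letters in the windows and not of binding.

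The mean levels of the members in these cells ran from 3.597 to 316 CPM. By mean CPM over the 16 mice the highest members were Sqstm1 (p62, the receptor that links ubiquitinated cargo to LC3) with 316 ± 31.0 CPM, Ulk2 with 248 ± 36.9 CPM and Gabarap with 196 ± 20.8 CPM (SD, n = 16). The lowest were Optn (optineurin, a receptor for damaged mitochondria and bacteria) with 3.597 ± 2.36 CPM, Wipi1 (a PI3P-binding protein) with 4.73 ± 1.51 CPM and Atg16l2 with 8.91 ± 2.24 CPM. Optn was the only member below 1 CPM in any library. The 37 members summed to between 2468 and 2854 CPM in a library.

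Levels of different genes were compared per kilobase of transcript. On that scale Gabarap was first with a mean of 175 CPM per kb, then Sqstm1 with 163 and Map1lc3b (LC3B) with 72.6. Within the ATG8 family Gabarap made up 46.4 to 52.6% of the summed CPM per kb in every library (median 48.9%), followed by Map1lc3b, Gabarapl2 (54.9 CPM per kb), Map1lc3a (38.7) and Gabarapl1 (15.8). Between the paired kinases that start autophagy, Ulk2 was above Ulk1 in all 16 libraries, by 2.56 to 10.3 times per kb. Epg5, the tether that brings autophagosomes to lysosomes, had a moderate CPM (mean 32.6) and one of the lowest levels per kb (3.43), above only Atg16l2 (2.84), Wipi1 (2.26) and Optn (1.40).

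**Figure D1:**
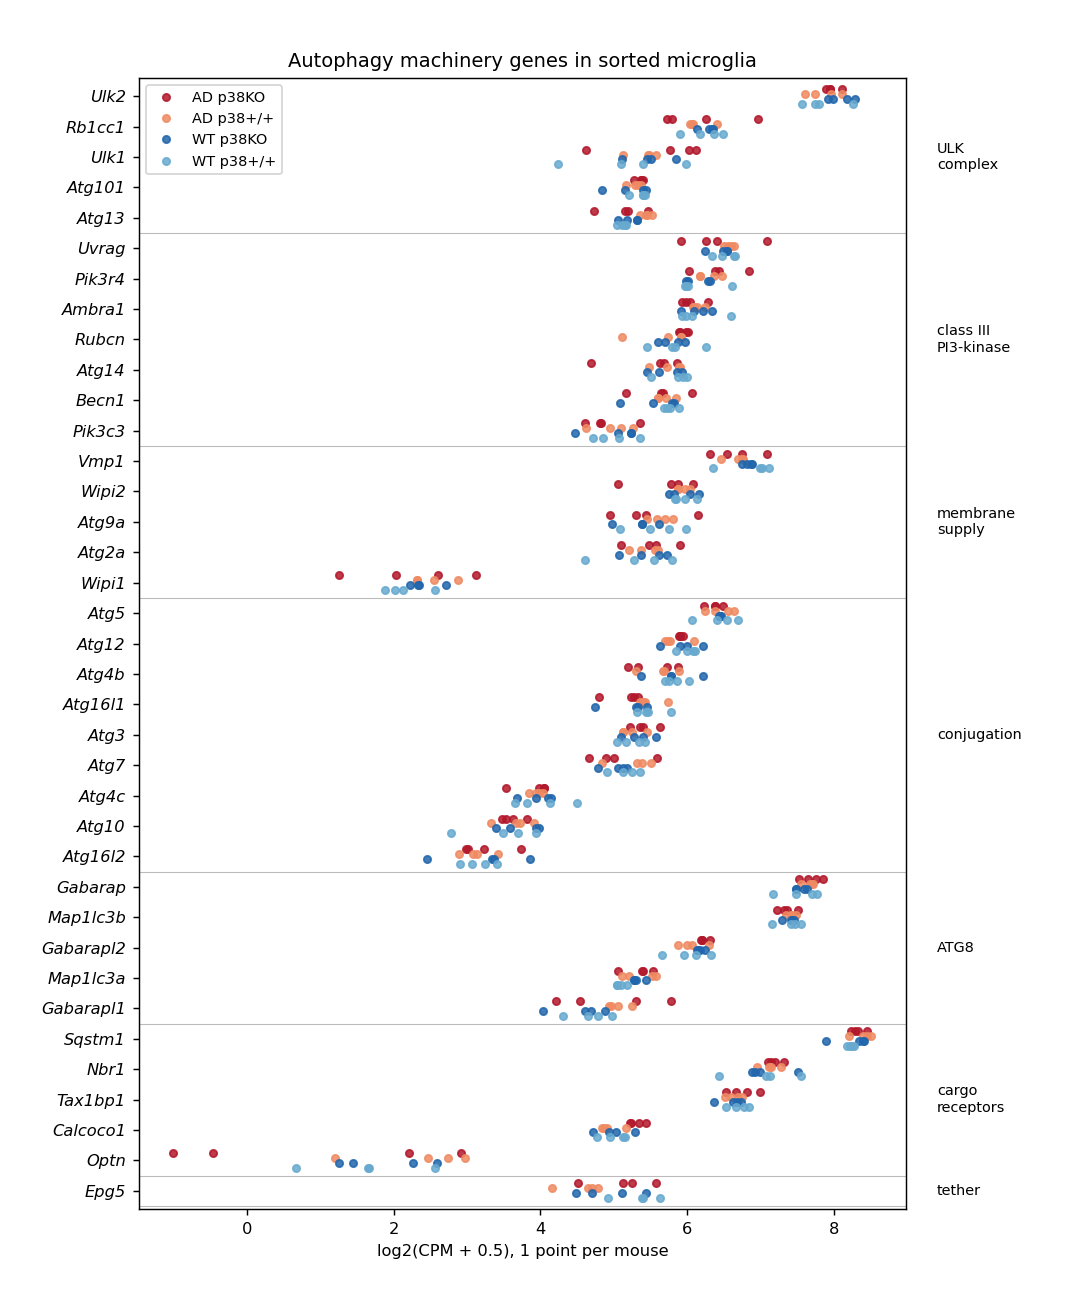
Level of each of the 37 members as log2(CPM + 0.5) on the horizontal axis, with 1 point per mouse, 4 mice per group in the colours of the legend and the members ordered by role and then by mean CPM. The groups lie over each other for nearly every member, and the spread is widest for Optn (0 to 7.36 CPM) and narrow for Map1lc3b (142 to 188 CPM).

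Members varied less between mice of a group than genes in general. The SD within groups of log2(CPM + 0.5) had a median of 0.26 over the 37 members, against 0.35 over all 13912 genes and 0.30 over the 10319 genes whose mean CPM lay within the range of the members. The members were also higher in level, with a median mean CPM of 50.8 against 18.2 over all genes. Genes were not matched for level within that range, and the part of level in the lower SD was not tested. Map1lc3b was the steadiest, with an SD of 0.11 and a highest level 1.32 times its lowest. Optn was the least steady with an SD of 1.16, then Ulk1 with 0.53 (18.4 to 69.1 CPM), Wipi1 with 0.46 and Gabarapl1 with 0.43 (15.9 to 54.6 CPM). Single libraries carried part of this spread: AD p38KO mouse 4 held the highest value of 11 of 37 members (and of 16.4% of all genes tested), and WT p38KO mouse 2 held the lowest value of 7 of 37 (and of 3.56% of all genes tested). AD p38KO mouse 1 held the lowest value of 6 members (16.6% of all genes) and WT p38+/+ mouse 2 the highest of 6 (14.3%). The part of these libraries in any difference given below was not tested, other than by leaving each out.

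No member passed the test in any comparison. With amyloid pathology and intact p38α (AD p38+/+ against WT p38+/+), 0 of 37 members were called, against 50 of 13912 genes (0.359%); 2 members (Epg5 and Atg13) had an unadjusted p under 0.05, against 7.11% of all genes (limma, Benjamini-Hochberg over all genes, smallest adjusted p of a member 0.362). The log2 fold changes had a median of 0.02 over the members and -0.01 over all genes, with 19 members positive and 18 negative. With amyloid pathology in the absence of p38α (AD p38KO against WT p38KO), 0 of 37 members were called, against 0.323% of all genes, and 1 (Calcoco1) had an unadjusted p under 0.05, against 9.56% of all genes (limma, smallest adjusted p 0.514, median -0.01 over the members and -0.04 over all genes). The groups did not overlap for 0 members and for 4.93% of all genes.

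Loss of p38α gave the same picture. In AD mice (AD p38KO against AD p38+/+), 0 of 37 members were called, against 0.0503% of all genes, and 3 (Calcoco1, Epg5 and Atg13) had an unadjusted p under 0.05, against 6.99% of all genes (limma, smallest adjusted p 0.670, median -0.04 over the members and -0.02 over all genes). In WT mice (WT p38KO against WT p38+/+), 0 of 37 were called, against 0.00719% of all genes, and 0 had an unadjusted p under 0.05, against 3.53% of all genes (limma, median -0.00 over the members and 0.02 over all genes).

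The main effects and the interaction, taken from the same fit of all 16 mice as the pairwise comparisons, added no call. For the APP/PS1 main effect (both AD groups against both WT groups), 0 of 37 members were called by limma, against 1.03% of all genes, and 0 had an unadjusted p under 0.05, against 12% of all genes. For the p38 KO main effect, 0 of 37 were called, against 0.0791% of all genes, and 1 (Atg16l1) had an unadjusted p under 0.05, against 5.9%. For the interaction, the AD effect in p38KO mice minus that in p38+/+ mice, 0 of 37 were called, against 0% of all genes, and 1 (Epg5) had an unadjusted p under 0.05, against 3.92%.

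The intervals give the range of differences that the values allow for each member. They are not adjusted for the number of genes, while the calls are. Of the 148 pairwise intervals (37 members in 4 comparisons, 95%), 141 lay wholly within a 2-fold change in either direction, and 34 members had all 4 of their intervals within it. The exceptions were Epg5, Wipi1 and Optn. The fitted log2 fold change was under 0.5 in size in 143 of the 148. Of the 148 intervals, 100 lay within a 1.5-fold change (23 to 27 of the 37 members in each comparison), and 18 members had all 4 within it. From the estimate to the end of its interval was a median of 0.37 on the log2 scale, and 0.20 to 1.51 over the members. In 6 of the 148 the interval excluded 0 (unadjusted p under 0.05, limma), against 3.53 to 9.56% of all genes in the 4 comparisons. None of these 6 passed after adjustment. With adjustment, no change of a member could be told from none.

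**Figure D2:**
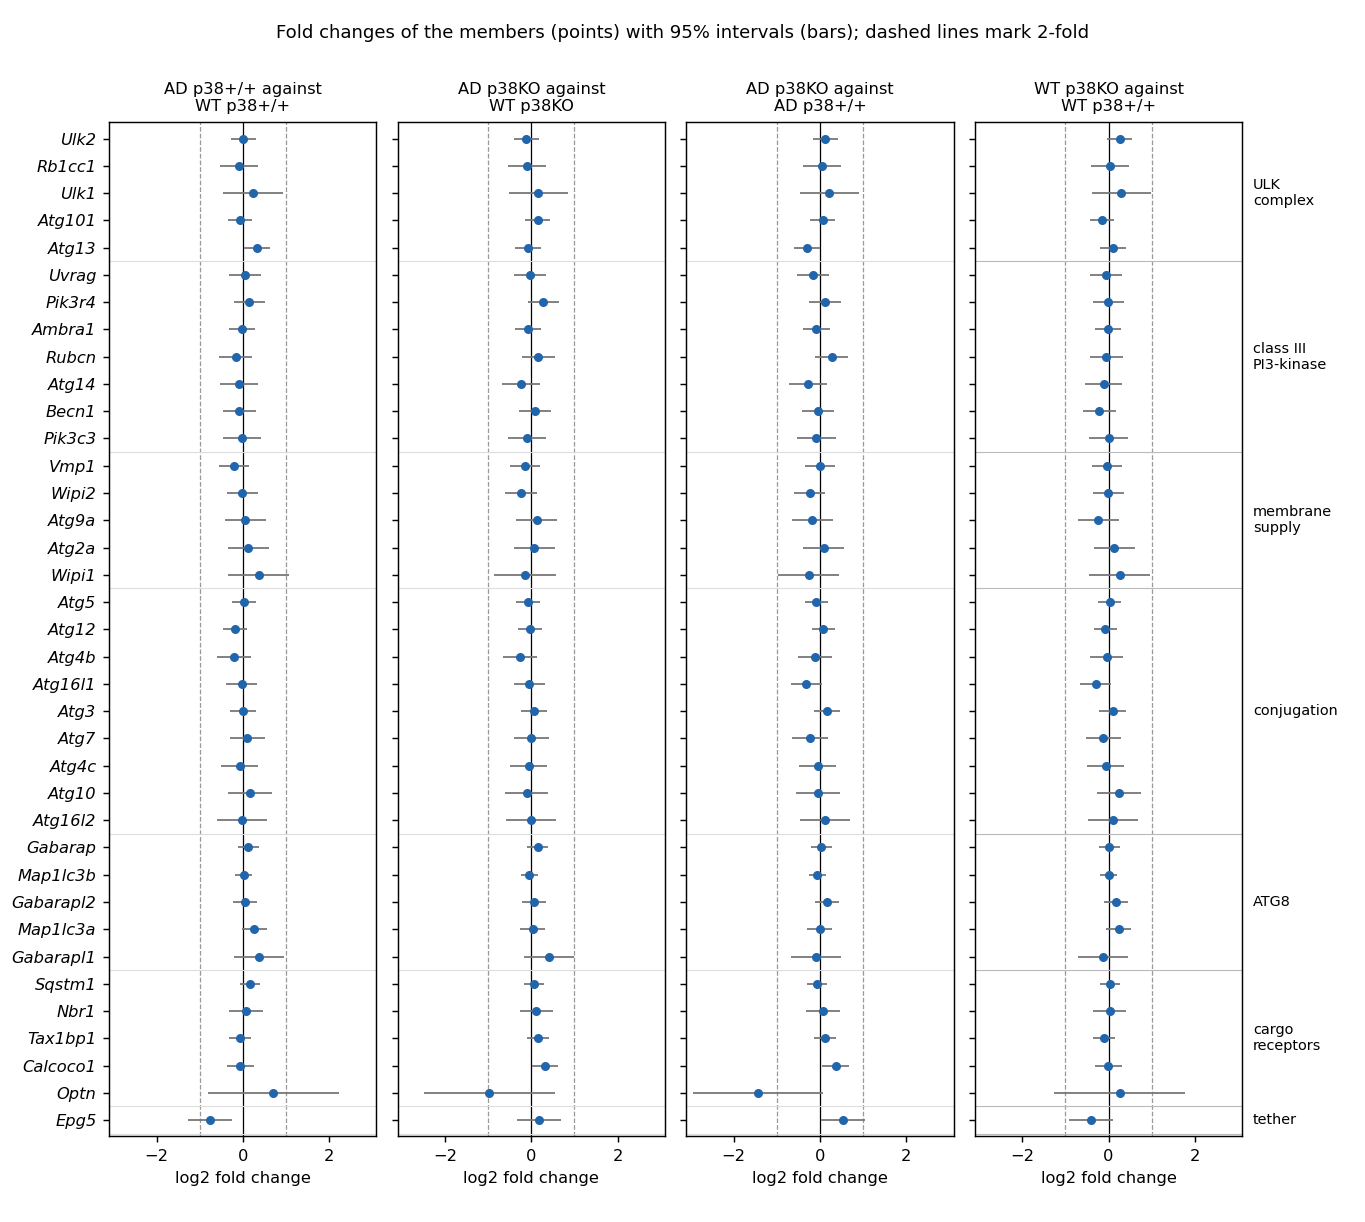
Log2 fold change of each member (points) with its 95% interval (bars) in the 4 pairwise comparisons, on a horizontal axis from -3.1 to 3.1 with dashed lines at a 2-fold change. Of the 148 intervals, 141 lie between the dashed lines, and those of Optn are the widest.

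In the ULK complex, 0 of 5 members were called and the median log2 fold change lay between -0.08 and 0.10 in the 4 pairwise comparisons. Atg13, the regulatory subunit through which nutrient signals reach the kinase, had 45.2, 40.7, 42.8 and 43.3 CPM in AD p38+/+ mice, against 32.5, 35.3, 35.1 and 34.1 CPM in WT p38+/+ mice. All 4 AD p38+/+ values lay above the WT p38+/+ values, as the groups did not overlap for 2 of 37 members (Atg13 and Epg5) and for 5.23% of all genes in this comparison. The log2 fold change was 0.32 (SE 0.14, adjusted p = 0.657, limma). AD p38KO mice had 36.0, 43.9, 35.3 and 26.0 CPM, which overlapped those of AD p38+/+ mice (limma log2 fold change -0.30, SE 0.14, adjusted p = 0.714, and -0.13 without AD p38KO mice 1 and 4), and WT p38KO mice had 39.2, 32.8, 39.5 and 35.7 CPM.

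Ulk2 had 276, 238, 247 and 247 CPM in AD p38KO mice and 214, 249, 275 and 194 CPM in AD p38+/+ mice. It had 242, 290, 312 and 255 CPM in WT p38KO mice, against 213, 305, 189 and 221 CPM in WT p38+/+ mice (log2 fold change 0.26, SE 0.14, adjusted p = 1, limma, and 0.40 without WT p38+/+ mouse 2). The groups overlapped in both pairs. Ulk1, the other kinase, Rb1cc1 (FIP200, the scaffold) and Atg101 (the partner that stabilises ATG13) had log2 fold changes between -0.15 and 0.30 in the same 4 comparisons.

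In the class III PI3-kinase complexes and their regulators, 0 of 7 members were called, and the median log2 fold change lay between -0.08 and -0.02. Pik3r4 (VPS15, the regulatory subunit) had 86.2, 64.5, 82.5 and 114.1 CPM in AD p38KO mice, against 79.2, 62.6, 77.2 and 63.8 CPM in WT p38KO mice. It had 82.1, 71.5, 72.1 and 88.9 CPM in AD p38+/+ mice, against 63.0, 97.5, 62.3 and 64.1 CPM in WT p38+/+ mice. The groups overlapped in both comparisons (APP/PS1 main effect 0.21, SE 0.12, adjusted p = 0.514, limma, and 0.10 without AD p38KO mice 1 and 4). Pik3c3 (VPS34, the catalytic subunit), Becn1 (beclin 1), Atg14, Uvrag (which takes the place of ATG14 in the endosomal complex), Ambra1 (an activator) and Rubcn (a brake on the complex that is needed for LC3-associated phagocytosis) lay between -0.28 and 0.27 in all 4 comparisons, with Atg14 lowest and Rubcn highest, both in AD p38KO against AD p38+/+ mice.

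Among the 5 members that supply membrane or read PI3P, 0 were called. Atg9a (a scramblase carried on vesicles), Atg2a (a lipid transfer protein), Vmp1 (an ER scramblase) and Wipi2 (which recruits ATG16L1) lay between -0.25 and 0.14 on the log2 scale. Wipi1 had 1.88, 3.58, 5.59 and 8.19 CPM in AD p38KO mice and 4.48, 6.83, 5.35 and 4.47 CPM in AD p38+/+ mice. It had 4.15, 6.07, 4.61 and 4.51 CPM in WT p38KO mice and 3.19, 5.42, 3.87 and 3.53 CPM in WT p38+/+ mice, so that the widest spread was within the AD p38KO group.

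Among the 9 members of the conjugation reactions, 0 were called, and the median lay between -0.05 and -0.02. Atg16l1, which brings the ATG12-ATG5 conjugate to the membrane, had 39.7, 38.1, 27.3 and 37.2 CPM in AD p38KO mice, against 52.7, 40.6, 42.5 and 41.6 CPM in AD p38+/+ mice. All 4 AD p38KO values lay below the AD p38+/+ values; 2 of 37 members (Atg16l1 and Calcoco1) and 3.34% of all genes did not overlap between these groups. Atg16l1 had 26.4, 39.7, 43.2 and 39.0 CPM in WT p38KO mice, against 43.7, 54.3, 39.2 and 43.0 CPM in WT p38+/+ mice, which overlapped. The p38 KO main effect was -0.31 (SE 0.12, adjusted p = 0.788, limma).

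Atg4b, the main protease that trims ATG8 proteins and removes them from lipid, had 52.4, 39.7, 58.5 and 36.1 CPM in AD p38KO mice, against 54.3, 41.0, 73.8 and 54.6 CPM in WT p38KO mice. It had 38.9, 51.2, 59.0 and 50.3 CPM in AD p38+/+ mice, against 51.5, 53.2, 64.8 and 57.7 CPM in WT p38+/+ mice. The groups overlapped in both (APP/PS1 main effect -0.23, SE 0.13, adjusted p = 0.525, limma). Atg16l2, a paralog of Atg16l1, ranged from 7.46 to 12.9 CPM in AD p38KO mice, 6.90 to 10.2 in AD p38+/+, 4.98 to 14.0 in WT p38KO and 6.98 to 10.1 in WT p38+/+ mice. The enzymes Atg7, Atg3 and Atg10 (the E2-like enzyme for ATG12), the protease Atg4c, and Atg5 and Atg12 themselves lay between -0.23 and 0.25 in all 4 comparisons.

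All 5 ATG8 genes had a positive log2 fold change in AD p38+/+ against WT p38+/+ mice (median 0.13) and 4 of 5 in AD p38KO against WT p38KO mice (median 0.05), and 0 of 5 were called in either. Of all genes, 49.1% and 43.8% were positive in these comparisons. WT p38+/+ mouse 2 had an ATG8 sum of 387 CPM, against 485 to 531 CPM in the others of its group. It held the lowest Gabarap, Gabarapl2 and Map1lc3b values of all libraries. Its part in the shared direction was not tested. Gabarapl1 had 54.6, 39.0, 22.8 and 18.1 CPM in AD p38KO mice, against 24.0, 15.9, 25.2 and 28.9 CPM in WT p38KO mice. It had 30.1, 30.6, 32.9 and 37.5 CPM in AD p38+/+ mice, against 27.0, 19.3, 24.5 and 30.8 CPM in WT p38+/+ mice. In AD p38+/+ mice 2 values lay above the WT p38+/+ range and 2 just under its highest value, and in AD p38KO mice 2 lay above the WT p38KO range and 2 within it (APP/PS1 main effect 0.39, SE 0.19, adjusted p = 0.437, limma). This value moved with single AD p38KO mice: it was 0.25 (adjusted p = 0.617, limma) without mouse 1 and 0.52 (SE 0.17, adjusted p = 0.181) without mouse 4, the smallest adjusted p of any member in any setting tried.

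Map1lc3a (LC3A) had 42.8, 38.1, 38.9 and 38.3 CPM in WT p38KO mice, against 33.6, 32.4, 35.7 and 32.4 CPM in WT p38+/+ mice. All 4 WT p38KO values lay above those of WT p38+/+ mice, the only member of 37 whose groups did not overlap in this comparison (2.72% of all genes; log2 fold change 0.23, SE 0.14, adjusted p = 1, limma). It had 41.6, 46.1, 41.5 and 33.0 CPM in AD p38KO mice and 36.5, 47.4, 34.2 and 45.4 CPM in AD p38+/+ mice, which overlapped. AD p38+/+ against WT p38+/+ mice gave 0.27 (SE 0.14, adjusted p = 0.749, limma).

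Gabarapl2 ranged from 72.6 to 79.0 CPM in AD p38KO mice, against 58.0 to 78.3 CPM in AD p38+/+ mice, and from 69.9 to 75.3 CPM in WT p38KO mice, against 49.8 to 79.4 CPM in WT p38+/+ mice (p38 KO main effect 0.17, SE 0.09, adjusted p = 0.841, limma, and 0.11 without WT p38+/+ mouse 2). Gabarap ranged from 184 to 230 CPM in AD p38KO mice, 187 to 210 in AD p38+/+, 178 to 198 in WT p38KO and 143 to 218 in WT p38+/+ mice. Map1lc3b, the form most often used as a marker of autophagosomes, was within 0.06 of no change on the log2 scale in all 4 comparisons.

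Among the 5 cargo receptors, 0 were called. Calcoco1, a receptor for the endoplasmic reticulum, had 37.1, 36.8, 40.0 and 43.0 CPM in AD p38KO mice, against 28.0, 35.3, 28.6 and 29.6 CPM in AD p38+/+ mice. All 4 AD p38KO values lay above the AD p38+/+ values (log2 fold change 0.37, SE 0.15, adjusted p = 0.670, limma). WT p38KO mice had 38.7, 25.7, 30.1 and 32.1 CPM, which overlapped the AD p38KO values (log2 fold change of AD p38KO against WT p38KO 0.32, SE 0.15, adjusted p = 0.514, limma), and WT p38+/+ mice had 35.2, 34.4, 30.4 and 26.7 CPM.

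Optn had 0.226, 7.08, 4.12 and 0 CPM in AD p38KO mice, against 7.36, 1.79, 6.19 and 5.04 CPM in AD p38+/+ mice. Mice 1 and 4 of the AD p38KO group, which also stood apart on the principal components, were at or below about 3 reads, while mice 2 and 3 were within the range of the other groups (limma log2 fold change -1.43, SE 0.72, adjusted p = 0.737). It had 4.31, 1.88, 5.54 and 2.22 CPM in WT p38KO mice and 1.09, 5.42, 2.66 and 2.63 CPM in WT p38+/+ mice. Sqstm1 had 311, 320, 299 and 349 CPM in AD p38KO mice, 294, 364, 338 and 350 in AD p38+/+, 340, 237, 337 and 325 in WT p38KO and 309, 297, 302 and 289 in WT p38+/+ mice. Nbr1 (a receptor that acts with p62) and Tax1bp1 (a ubiquitin-binding receptor) lay between -0.11 and 0.15 in all 4 comparisons.

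Epg5 had the smallest p of the members in AD p38+/+ against WT p38+/+ mice, and it was lower there. It had 27.1, 24.6, 25.5 and 17.3 CPM in AD p38+/+ mice, against 41.7, 48.9, 41.2 and 29.9 CPM in WT p38+/+ mice. All 4 AD p38+/+ values lay below the WT p38+/+ values, with a log2 fold change of -0.76 (SE 0.24, 95% interval -1.27 to -0.25, unadjusted p = 0.00564, adjusted p = 0.362, limma). Epg5 had 37.4, 34.5, 22.3 and 47.0 CPM in AD p38KO mice, against 25.5, 42.9, 34.0 and 21.9 CPM in WT p38KO mice, which overlapped (0.18, SE 0.24, adjusted p = 0.863, limma). The difference between the pair of AD effects, the interaction, was 0.94 (SE 0.34, unadjusted p = 0.0133, adjusted p = 1.00, limma), and AD p38KO against AD p38+/+ mice gave 0.54 (SE 0.24, adjusted p = 0.707, limma), or 0.25 without AD p38KO mice 1 and 4. Neither passed the test over all genes.

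**Figure D3:**
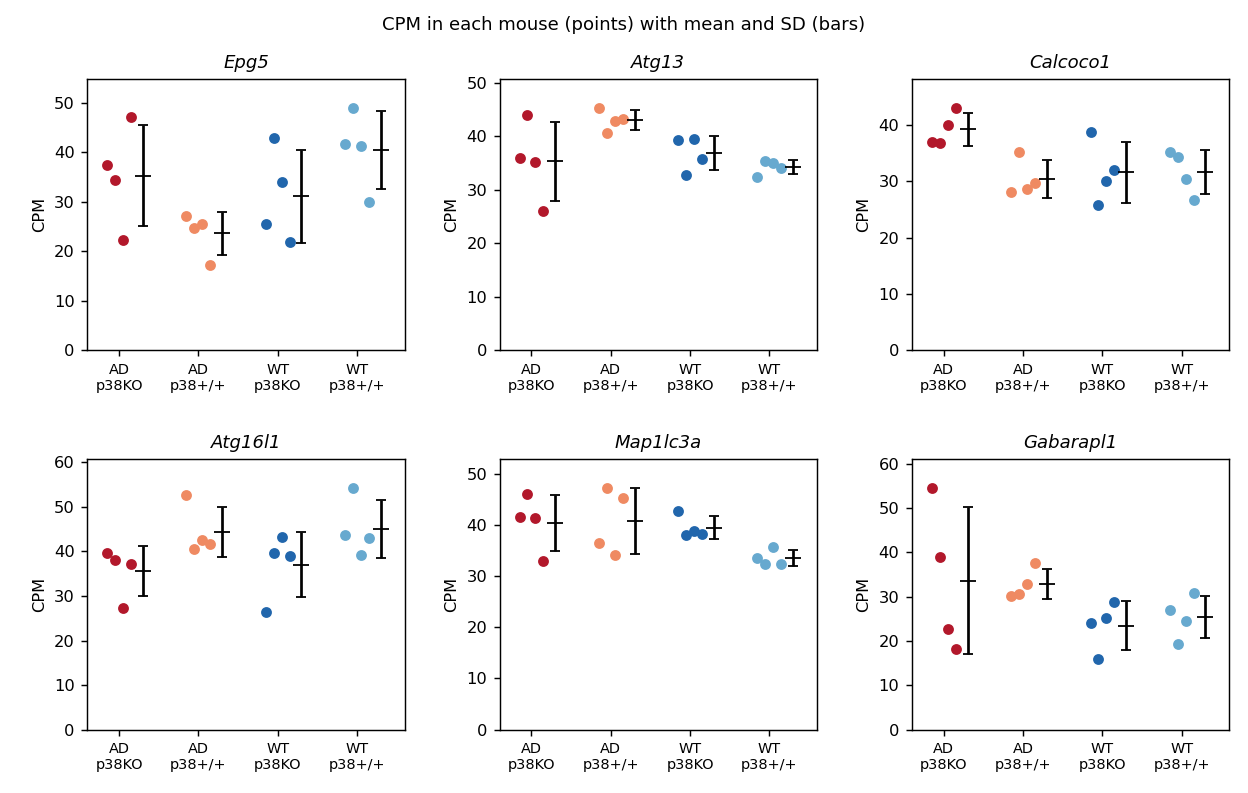
CPM of 6 members in each of the 4 mice of a group (points) with the mean and SD (bars); each vertical axis starts at 0 and the groups run AD p38KO, AD p38+/+, WT p38KO and WT p38+/+. Epg5 is lowest in AD p38+/+ mice (mean 23.6 CPM, against 40.4 CPM in WT p38+/+ mice), and the 4 Atg13 values of AD p38+/+ mice (40.7 to 45.2 CPM) lie above those of WT p38+/+ mice (32.5 to 35.3 CPM).

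The 5 genes with an E-box in the stretches printed above did not move together. Their median log2 fold change was -0.01 in AD p38+/+ against WT p38+/+ mice, -0.00 in AD p38KO against WT p38KO mice, -0.08 in AD p38KO against AD p38+/+ mice and -0.05 in WT p38KO against WT p38+/+ mice, with 2 of 5 positive each time and 0 called. The 25 members with a window and no E-box had medians of 0.05, -0.01, -0.04 and 0.00 in the same order. Of the factors that bind this element, Tfeb had 50.3, 53.1, 49.1 and 67.2 CPM in AD p38KO mice, against 32.2, 39.2, 43.9 and 51.1 CPM in AD p38+/+ mice, which overlapped (limma log2 fold change 0.41, SE 0.17, adjusted p = 0.682). Tfe3 had 194, 206, 216 and 207 CPM in AD p38+/+ mice, against 247, 292, 250 and 222 CPM in WT p38+/+ mice (-0.29, SE 0.11, adjusted p = 0.521, limma). These values did not overlap, nor did those of 5.23% of all genes in this comparison. Mitf lay between -0.24 and 0.28 in the 4 comparisons. Tfeb and Tfe3 were named outside the rule given below, each in the pairwise comparison of its smallest p. In the remaining pairwise comparisons Tfeb lay between -0.08 and 0.24 and Tfe3 between -0.03 and 0.23.

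The transcript table divided the members into 205 transcripts, of which 94 were protein coding, 76 retained introns, 21 processed transcripts and 14 targets of nonsense-mediated decay. The most abundant transcript was protein coding in 36 of 37 members and took over 80% of the CPM of the gene in 20, and protein-coding transcripts held a median of 90.7% of a member's CPM. The exception was Becn1, for which a retained-intron transcript, Becn1-202, held 35.2% and all protein-coding transcripts together 12.5% (7.77 to 21.4% in the 16 libraries). Becn1 also shared more of its annotated exonic bases with a gene on the opposite strand (43.9%, with Cntd1) than any other member. In all, 12 members share exonic bases with a gene on the opposite strand, among them Gabarapl1 (28.3%), Uvrag (17.6%) and Sqstm1 (17.3%), and 24 share none with any gene. Whether reads were counted by strand is not given in the sources used here, so reads of such pairs cannot be told apart.

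**Figure D4:**
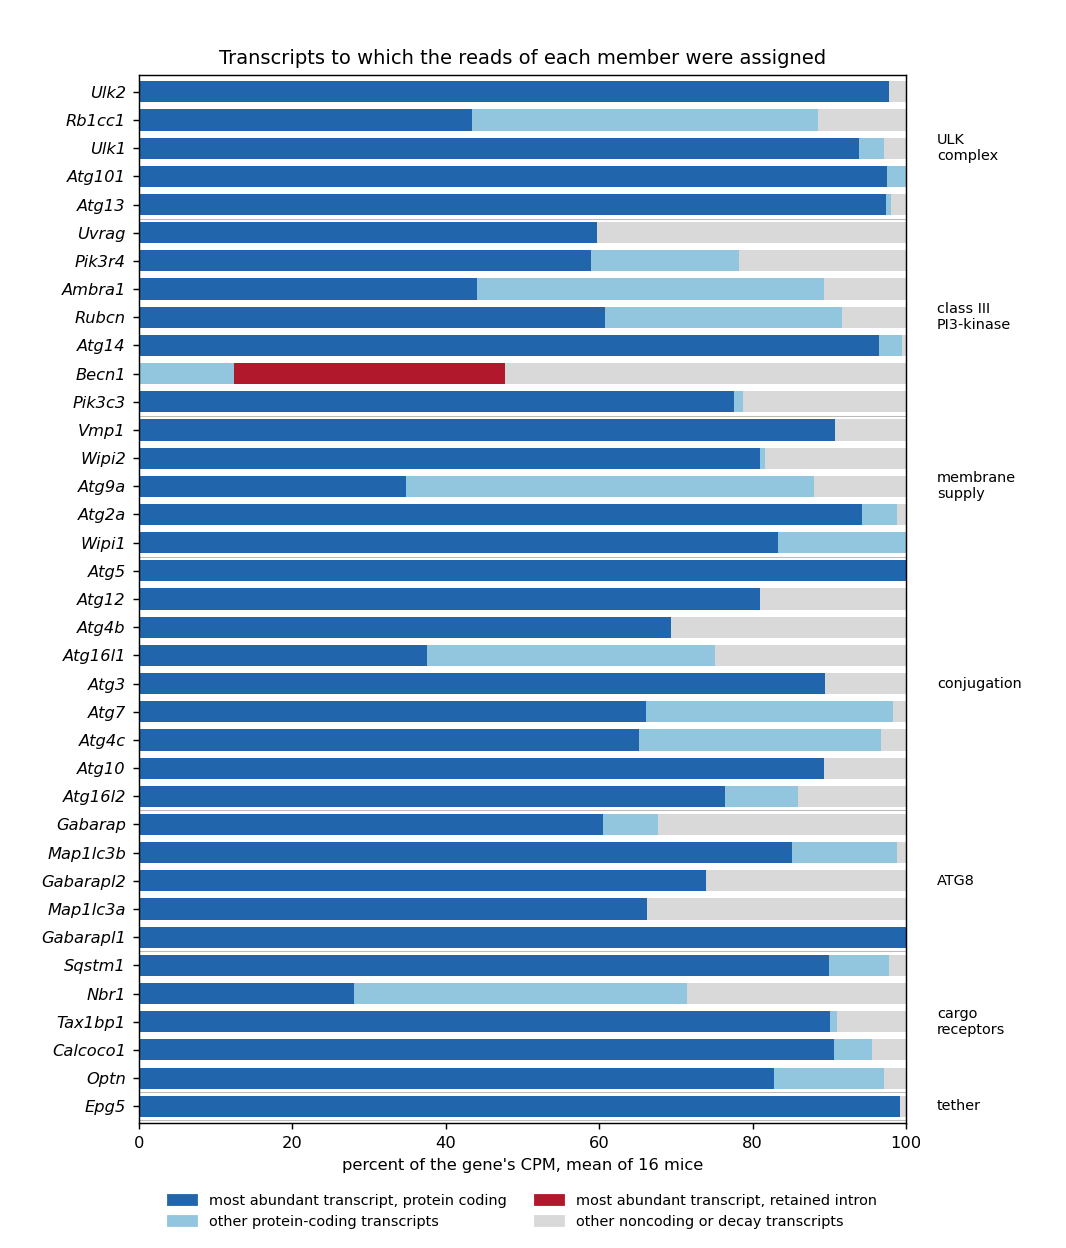
Percent of each member's CPM assigned to its most abundant transcript and to other transcript classes (mean of 16 mice), with the members ordered by role. Dark blue fills most of the bar for most members, while Becn1 is led by a retained-intron transcript (red, 35.2%) with 12.5% in protein-coding transcripts.

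Of the 128 member transcripts that could be tested, 0 were called in any of the 7 comparisons (limma, Benjamini-Hochberg over 34322 transcripts). The calls over all transcripts were 0.122% in AD p38+/+ against WT p38+/+, 0.0728% in AD p38KO against WT p38KO, 0.032% in AD p38KO against AD p38+/+ and 0.0146% in WT p38KO against WT p38+/+ mice. Unadjusted p-values under 0.05 numbered 7, 5, 15 and 2 of the 128 in the same order, against 5.36%, 8.57%, 7.75% and 4.27% of all transcripts. For the APP/PS1 main effect 9 of the 128 had an unadjusted p under 0.05, against 9.13% of all transcripts, of which 0.379% were called. For the p38 KO main effect the number was 14, against 7.39% (0.166% called), and for the interaction 7, against 4.26% (0% called).

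The member transcript with the smallest p was Epg5-201, the main transcript of Epg5, in AD p38+/+ against WT p38+/+ mice and in the interaction, Ambra1-201 in AD p38KO against WT p38KO mice and in the APP/PS1 main effect, Ambra1-202 in AD p38KO against AD p38+/+ mice, and Becn1-210 in WT p38KO against WT p38+/+ mice and in the p38 KO main effect. Epg5-201 moved as its gene did (-0.78, SE 0.24, adjusted p = 0.571 in AD p38+/+ against WT p38+/+ mice, limma). Ambra1-201, a protein-coding transcript, had 1.53, 1.22, 8.65 and 3.61 CPM in AD p38KO mice, against 5.27, 10.47, 13.3 and 15.6 CPM in WT p38KO mice, and 1 AD p38KO value overlapped (-1.69, SE 0.52, adjusted p = 0.348, limma). It had 2.16, 2.93, 3.13 and 11.4 CPM in AD p38+/+ mice, against 6.29, 7.33, 4.57 and 8.48 CPM in WT p38+/+ mice (APP/PS1 main effect -1.17, SE 0.37, adjusted p = 0.299, limma). Ambra1-202, also protein coding, had 15.1, 7.17, 11.7 and 18.6 CPM in AD p38KO mice, against 2.15, 3.70, 9.01 and 3.33 CPM in AD p38+/+ mice (limma log2 fold change 1.52, SE 0.43, adjusted p = 0.369), and 1 value overlapped. Map1lc3b-204 had 3.87, 8.71, 14.8 and 9.48 CPM in AD p38KO mice, against 25.2, 11.8, 18.1 and 19.1 CPM in AD p38+/+ mice (-1.06, SE 0.31, adjusted p = 0.385, limma). The gene totals of Ambra1 and Map1lc3b did not follow these transcripts, at -0.08 and -0.06 in the same comparison.

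Becn1-210, a retained-intron transcript, had 1.18, 1.23, 1.62 and 2.01 CPM in AD p38+/+ mice, against 3.50, 4.96, 3.62 and 4.09 CPM in WT p38+/+ mice. It had 1.21, 1.03, 1.33 and 1.02 CPM in WT p38KO mice, also below all 4 WT p38+/+ values (log2 fold change -1.46, SE 0.50, adjusted p = 0.881, limma). In AD p38KO mice it had 0.445 and 3.21 CPM in mice 1 and 2 and was at or next to 0 in mice 3 and 4. As a share of Becn1 it was 2.07 to 3.88% in AD p38+/+ mice and 1.88 to 3.04% in WT p38KO mice, against 6.46 to 8.46% in WT p38+/+ mice (exact permutation test, two-sided, p = 0.0286 each, the smallest that 4 against 4 allows, adjusted p = 0.152 over the 16 shares tested). These transcripts were chosen after their values were seen, so a small p for their shares is no independent support. The adjustment covers the 16 shares and not the 128 member transcripts from which they were picked. The part of all transcripts whose groups do not overlap was not counted. Of the 21 alternatives run on transcripts, leaving out AD p38KO mouse 2 was the only one that gave a call of a member transcript. Becn1-210 then passed in both main effects.

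Around the machinery, 110 further pathway genes from a written list were tested, and 5 more of that list were not: regulators of initiation, other lipidation enzymes and PI3P effectors, mitophagy receptors, fusion factors, transcriptional regulators, chaperone-mediated autophagy and LC3-associated phagocytosis. In the 4 pairwise comparisons 0 of 110 were called by limma in either direction, against 0.359%, 0.323%, 0.0503% and 0.00719% of all genes in the order AD p38+/+ against WT p38+/+, AD p38KO against WT p38KO, AD p38KO against AD p38+/+ and WT p38KO against WT p38+/+. Unadjusted p-values under 0.05 numbered 7, 12, 12 and 4 of the 110 in that order, against 7.11%, 9.56%, 6.99% and 3.53% of all genes. The medians of the 110 lay between -0.01 and 0.01. For the APP/PS1 main effect 2 of 110 were called, both higher, against 1.03% of all genes, and for the p38 KO main effect and the interaction 0 of 110 (limma, with 9 and 4 at an unadjusted p under 0.05, against 5.9% and 3.92% of all genes).

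Those called were Hif1a, a transcription factor of the response to low oxygen that also drives mitophagy genes, and Cybb, the gp91phox subunit of the NADPH oxidase that LC3-associated phagocytosis requires; both are named after their values were seen. Hif1a had 393, 318, 352 and 281 CPM in AD p38KO mice, against 174, 212, 213 and 194 CPM in WT p38KO mice. It had 456, 255, 282 and 281 CPM in AD p38+/+ mice, against 253, 204, 213 and 173 CPM in WT p38+/+ mice. All 8 AD values lay above all 8 WT values (APP/PS1 main effect 0.66, SE 0.11, adjusted p = 0.00438, limma). The share of all genes whose AD and WT values separate in this way was not counted.

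Cybb had 54.3, 37.3, 60.7 and 52.0 CPM in AD p38KO mice, against 16.2, 46.1, 12.2 and 26.4 CPM in WT p38KO mice. It had 113.9, 45.9, 52.8 and 39.4 CPM in AD p38+/+ mice, against 27.1, 28.1, 14.3 and 6.75 CPM in WT p38+/+ mice. The p38+/+ groups did not overlap (nor did they for 5.23% of all genes) and the p38KO groups did (APP/PS1 main effect 1.46, SE 0.31, adjusted p = 0.0236, limma). The adjusted p of Cybb was 0.0523 to 0.0625 without AD p38KO mouse 1, AD p38+/+ mouse 1, WT p38KO mouse 1 or 3, or WT p38+/+ mouse 3, and 0.0820 without AD p38KO mice 1 and 4.

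Other pathway genes had small p-values without a call. Rragd, a GTPase that carries amino acid signals to mTORC1, had 6.62, 3.45, 4.85 and 7.23 CPM in AD p38+/+ mice, against 4.35, 0.609, 0.380 and 0.964 CPM in WT p38+/+ mice, where mouse 1 overlapped the AD values (1.85, SE 0.46, adjusted p = 0.128, limma). Mlst8, a subunit of mTORC1 and mTORC2, had 9.10, 6.53, 4.35 and 6.63 CPM in AD p38KO mice, against 8.79, 13.001, 17.6 and 13.5 CPM in WT p38KO mice (-0.94, SE 0.25, adjusted p = 0.146, limma). AD p38KO mouse 1 overlapped WT p38KO mouse 1, and the other values did not overlap.

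Ncf4 (p40phox, the PI3P-binding subunit of the NADPH oxidase) had 45.0, 57.4, 45.7 and 52.3 CPM in AD p38KO mice, against 71.9, 84.0, 73.5 and 85.7 CPM in AD p38+/+ mice, with no overlap (-0.65, SE 0.14, adjusted p = 0.197, limma). Map3k7 (TAK1, a kinase upstream of p38 and AMPK) had 62.9, 47.4, 44.7 and 62.3 CPM in AD p38KO mice, against 36.3, 38.9, 41.0 and 31.3 CPM in AD p38+/+ mice, also with no overlap (0.54, SE 0.16, adjusted p = 0.440, limma). Ncf4 and Map3k7 were picked for a small p, and 3.34% of all genes did not overlap between these groups. In WT p38KO against WT p38+/+ mice the smallest p-values were those of Vps39 (a subunit of the HOPS tether, -0.44, SE 0.16) and Rubcnl (PACER, a promoter of autophagosome maturation, -0.28, SE 0.12), both with an adjusted p of 1 (limma).

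**Figure D5:**
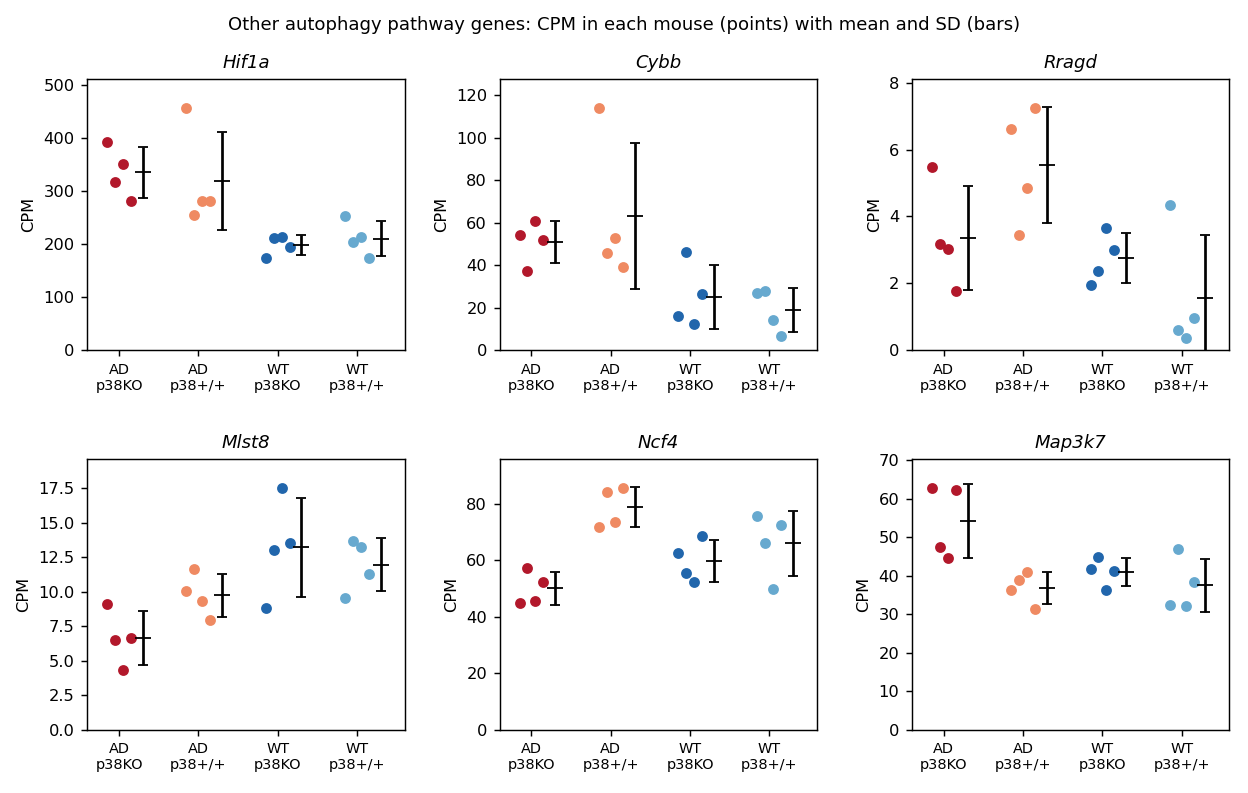
CPM of 6 further autophagy pathway genes in each of the 4 mice of a group (points) with the mean and SD (bars), each vertical axis starting at 0, which cuts the lower bar of Rragd in WT p38+/+ mice. The 8 AD values of Hif1a (255 to 456 CPM) lie above the 8 WT values (173 to 253 CPM), and the 4 Ncf4 values of AD p38KO mice (45.0 to 57.4 CPM) lie below those of AD p38+/+ mice (71.9 to 85.7 CPM).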

How the data were processed

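Sorted microglia of 16 mice were sequenced. Reads were mapped to mm10 by the authors with STAR and quantified against Ensembl release 100 transcripts in Partek Flow 10.0.22.0828. The authors deposited a gene and a transcript table of CPM (each library scaled to 1000000 assigned reads) with 0.0001 added to each value; this offset was taken off. No value column was left without a mouse (0 in both tables). Raw counts could not be recovered: 73.6 to 80.3% of the low values were whole numbers of reads within 0.05. A floor of 3 reads was 0.183 to 0.244 CPM.

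Values were taken as log2(CPM + 0.5), so fold changes of low genes are understated. Genes and transcripts that reached 1 CPM in 4 libraries or more were tested in 1 model of 4 groups by limma 3.58.1 in R 4.3.3 (empirical Bayes with a mean-variance trend, two-sided, Benjamini-Hochberg over all features, called under 0.05). The methods of the study name DESeq2 on counts, which these values do not permit. Shares were compared by exact permutation tests. CPM per kb used transcript lengths of GENCODE M21 (GRCm38), in which the coordinates of all 37 members matched. Promoter windows were those of RefSeq (GRCm38.p6); Atg12, Epg5, Atg16l1, Map1lc3a, Becn1, Rb1cc1 and Pik3c3 had no window in the table.

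The members, roles and lists were chosen with earlier results of these data known. Values were given in every library, or as the range of each group, for members called, the 3 with the smallest p in each of 7 comparisons, and the 3 highest and 3 lowest by mean CPM; of the other lists, for genes called in a pairwise comparison and the 2 with the smallest p in each. The labels give no litter or day, so the p-values measure the spread between these mice; 5 libraries are labelled female and 11 male. The alternatives were other pseudocounts (0.1, 1 and 0.0001 CPM), filters (none and 5 CPM), quantile scaling and an unweighted trimmed mean of M-values (TMM), array weights, the groups compared only, covariates for sex and for the label suffix S0 of 3 libraries, animal number as a block (also with sex), and leaving out each library or AD p38KO mice 1 and 4 together.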

Additional observations from a re-analysis of the deposited data

Results flagged for a closer look

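Among the 60 groups of 4 values of the 15 members named by rule, 5 had 1 mouse whose gap to the nearest other mouse took a larger part of the range of the group than Dixon's 95% critical value, where chance gives about 1 group in 20. Pik3r4 was at 97.5 CPM in WT p38+/+ mouse 2, with 62.3 to 64.1 CPM in the others. Atg16l1 was at 52.7 CPM in AD p38+/+ mouse 1, with 40.6 to 42.5 CPM in the others. Sqstm1 was at 237 CPM in WT p38KO mouse 2, with 325 to 340 CPM in the others. Gabarapl2 was at 79.0 CPM in AD p38KO mouse 1, with 72.6 to 73.4 CPM in the others, and Map1lc3a was at 42.8 CPM in WT p38KO mouse 1, with 38.1 to 38.9 CPM in the others.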

How the results depend on the processing

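Under 30 alternatives, 16 of which left out 1 library, the count of members called was 0 each time in every comparison an alternative could fit (207 values), as in the fit reported. The members' median log2 fold change stayed between -0.06 and 0.06 in the 4 pairwise comparisons, and the fold changes of the members with the smallest p-values kept their direction in every setting. Their size was less steady: of 21 such values 11, in 8 members, moved by more than 1.5 times in some setting. The largest moves were those of Pik3r4 in AD p38KO against WT p38KO mice (0.27, with 0.05 without AD p38KO mice 1 and 4) and of Gabarapl1 in the same comparison (0.41, with 0.14 without AD p38KO mouse 1 and 0.66 without mouse 4). Others were Atg13 in AD p38KO against AD p38+/+ mice (-0.42 to -0.13) and in the interaction (-0.52 to -0.22), Epg5 in AD p38KO against AD p38+/+ mice (0.25 to 0.74), Pik3r4 in the APP/PS1 main effect (0.10 to 0.29), Atg16l1 in WT p38KO against WT p38+/+ mice (-0.37 to -0.14), Ulk2 in the same comparison (0.17 to 0.40), Calcoco1 in AD p38KO against WT p38KO mice (0.20 to 0.42), Gabarapl1 in the APP/PS1 main effect (0.25 to 0.52) and Gabarapl2 in the p38 KO main effect (0.11 to 0.22). With the animal number as a replicate block, 0 members were called in all 7 comparisons, and over all genes 49, 44, 7, 1, 131, 11 and 0 were called, in the order AD p38+/+ against WT p38+/+, AD p38KO against WT p38KO, AD p38KO against AD p38+/+, WT p38KO against WT p38+/+, APP/PS1 main effect, p38 KO main effect and interaction. Whether the numbers pair the mice cannot be told from these values. Of 24 same-numbered pairs 2 had a correlation of deviations above 0.1 (-0.131 to 0.184), against 4 of 72 differently numbered pairs (-0.148 to 0.212). Of the 16 libraries, 9 correlated best with a library of their own number, and the number that chance would give was not computed. Mouse 1 was labelled female in every group, as was WT p38KO mouse 2, so number and sex are partly mixed. Transcripts were run under only 21 of the alternatives: pseudocounts of 0.1 and 1 CPM, both filters, animal number as a block and each library left out. Member transcripts called numbered 0 to 1 in the APP/PS1 and in the p38 KO main effect when single libraries were left out (1 without AD p38KO mouse 2, Becn1-210). They numbered 0 otherwise in these 21, and the cause was not tested. Hif1a kept its call in all 29 alternatives and Cybb in 22 of 29, with an adjusted p of 0.0501 at a pseudocount of 0.0001 CPM. With 4 mice per group, 100 of the 148 pairwise intervals excluded a 1.5-fold change in either direction, and Optn is near the floor in 2 libraries.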
